A study of Mus musculus with 4 samples.

Results

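The response to oxygen-glucose deprivation (OGD, a culture model of ischaemia in which cells lose oxygen and glucose together) was followed in HT22 cells infected with a lentivirus that targets Neat1. The members were all genes whose deposited size-factor scaled count reached 20 in at least 1 of the 2 libraries of the pair, 14034 of the 20089 genes in the tables. Each gene's value was the log2 ratio of its scaled count under OGD to that in normal culture, with 10 added to each count, which understates the ratio of low genes. HT22 is an immortalised line labelled as hippocampal neurons of C57BL/6 origin. The knockdown cells were kept either in normal culture (DMEM/F12 medium with 10% serum) or under OGD. A second pair of libraries, from cells infected with a control negative lentivirus under the same 2 cultures, is given side by side. The series held 4 libraries, 1 for each combination of virus and culture, so that no difference below has a replicate check and no test was run. The labels do not state the length of OGD, the lentiviral sequence or any pooling of cultures. A gene is called higher or lower when its value is at least 1 or at most -1, a 2-fold difference, which is a rule of size.

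Cells that run short of oxygen stop hydroxylating the alpha subunits of hypoxia-inducible factor (HIF), which then accumulate, pair with ARNT and bind a short core sequence near genes of glucose uptake, glycolysis, mitophagy and angiogenesis. Loss of glucose and amino acids, and of protein folding in the endoplasmic reticulum, activates kinases that raise translation of the transcription factor ATF4, the integrated stress response. Misfolded protein in the cytosol frees heat shock factor, which acts on chaperone genes. Neat1 is a long noncoding RNA that scaffolds the nuclear bodies called paraspeckles.

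The promoters of several genes that the results turn on are shown first, as stretches around the letters searched for. All come from RefSeq on GRCm38.p6, written 5′ to 3′ on the gene's own strand, from windows of 300 bases (250 before to 50 after each start). The hypoxia core ACGTG, on either strand, is in capitals in the 5 stretches from genes that were higher under OGD.
Bnip3 (chr7:138909589-138909634, minus strand): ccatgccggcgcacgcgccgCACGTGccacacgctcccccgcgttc
Slc2a1 (chr4:119108689-119108733, plus strand): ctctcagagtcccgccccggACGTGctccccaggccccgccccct
P4ha1 (chr10:59323260-59323304, plus strand): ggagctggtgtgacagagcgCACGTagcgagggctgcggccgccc
Egln3 (chr12:54204079-54204123, minus strand): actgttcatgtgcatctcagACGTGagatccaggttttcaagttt
Ankrd37 (chr8:45999832-45999876, minus strand): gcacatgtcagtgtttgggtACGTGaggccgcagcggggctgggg
In Bnip3 the capitals cover 2 overlapping matches, 1 on each strand, since CACGTG reads the same on both. The heat shock core GAANNTTC is in capitals in the next 4, of which the first 3 belong to genes that were higher and Fkbp4 to the lowest member of the heat shock list.
Hspa1b (chr17:34959320-34959357, minus strand): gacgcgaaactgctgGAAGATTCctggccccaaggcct
Hspa1a (chr17:34972238-34972275, minus strand): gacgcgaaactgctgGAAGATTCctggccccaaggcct
Hspb1 (chr5:135887787-135887844, plus strand): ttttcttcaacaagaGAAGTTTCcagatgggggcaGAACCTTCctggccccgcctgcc
Fkbp4 (chr6:128438785-128438822, minus strand): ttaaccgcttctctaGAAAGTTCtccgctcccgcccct
The Hspa1a and Hspa1b stretches are identical, and both matches start at -104 from the annotated start. The ATF4 element TGATGNAA is in capitals in the last 4, from Atf3 and Chac1, which were higher, Asns, which lay below 2-fold, and Slc7a11, which was lower and has 2 matches.
Atf3 (chr1:191183416-191183463, minus strand): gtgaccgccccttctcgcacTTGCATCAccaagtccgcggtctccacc
Chac1 (chr2:119351029-119351076, plus strand): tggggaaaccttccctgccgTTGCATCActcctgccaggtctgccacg
Asns (chr6:7693205-7693252, minus strand): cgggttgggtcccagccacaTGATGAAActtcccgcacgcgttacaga
Slc7a11 (chr3:50443633-50443699, minus strand): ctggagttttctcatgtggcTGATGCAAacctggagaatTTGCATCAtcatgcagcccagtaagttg
Promoters were found for 9914 of the 14034 genes. The hypoxia core stood in 21 of 35 promoters of measured HIF target genes (60.0%), against 25.27% of the promoters of all genes past the floor and 19.62% of all 32851 promoters in the table. The heat shock core stood in 13 of 31 promoters of the heat shock list (41.94%, against 7.86% of all promoters) and the ATF4 element in 12 of 35 of the integrated stress response list (34.29%, against 3.97%). By direction of the OGD value the hypoxia core was in 28.53% of promoters of higher genes not set apart (defined below) and in 23.16% of those of lower genes. A match is a description of the letters and not a measured binding site. Of the higher members alone, the heat shock core was in 3 of 9 promoters of the heat shock list and the hypoxia core in 16 of 25 of the HIF targets.

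The knockdown libraries held 20764430 reads assigned to genes in normal culture and 19066951 under OGD, and the control libraries 18596774 and 17232866. Levels across the 4 libraries are given as CPM (reads scaled to library size with TMM factors), and those between genes as the deposited length-normalised FPKM. Values written as 1 number to another run from normal culture to OGD. Intervals are at 95%, exact conditional binomial, and cover counting error only, with copies made by PCR counted as reads. Neat1 itself was lower under OGD in the cells in which it was targeted, from 121 to 42.1 CPM (value -1.52), and in control cells from 193 to 74.4 CPM (-1.30). In both cultures its level in the knockdown library was below that in the control library, but by less than 2-fold (value -0.82 under OGD). Malat1, its neighbour on chromosome 19, was at -0.28 and 0.46. The labelled cell type was checked on its markers. In knockdown cells in normal culture 34 neuronal markers summed to 46.2 CPM with 4 at 0 reads, while 10 markers of fibroblasts, among them Vim, Fn1, Acta2 and Col1a1, summed to 4992 CPM. The neuronal tubulin gene Tubb3 went from 407 to 419 reads. On either side of the floor stood Col5a3 (larger scaled count 20.1) and Gm43621 (19.8), and on either side of 2-fold Klhl9 (1.0001) and the gene ENSMUSG00000044060 (0.9998).

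Of the 14034 genes, 2666 were higher under OGD (19.0%) and 2392 lower (17.0%). The counts of every list in knockdown cells below are to be read beside these shares. List counts in control cells are to be read beside the shares there, 10.6% higher and 19.8% lower of 13930 genes. The median value was -0.01. Genes that were also 2-fold higher in the OGD library of knockdown cells than in that of control cells were set apart. Genes that also differ by virus in this direction under OGD are thus counted separately. Differences by virus in normal culture do not enter this rule. In that comparison 1304 of 13252 genes (9.84%) were 2-fold higher, and 843 of them were among the 2666. That leaves 1823 genes higher and not set apart (13.0%). They include 117 genes that were 2-fold lower under OGD in control cells. Of these 1823, 365 were at least 4-fold higher, and 530 of the lower genes were at least 4-fold lower. The higher genes not set apart took 6.82% of the reads of knockdown cells in normal culture and 20.7% under OGD, while the lower genes went from 18.4% to 5.44%. The direction of these shares was fixed by the calls, which used the same libraries, and only their size is described. Next to the limit for setting apart stood Mreg (1.0001, set apart) and Lcorl (0.9998, kept).

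**Figure D1:**
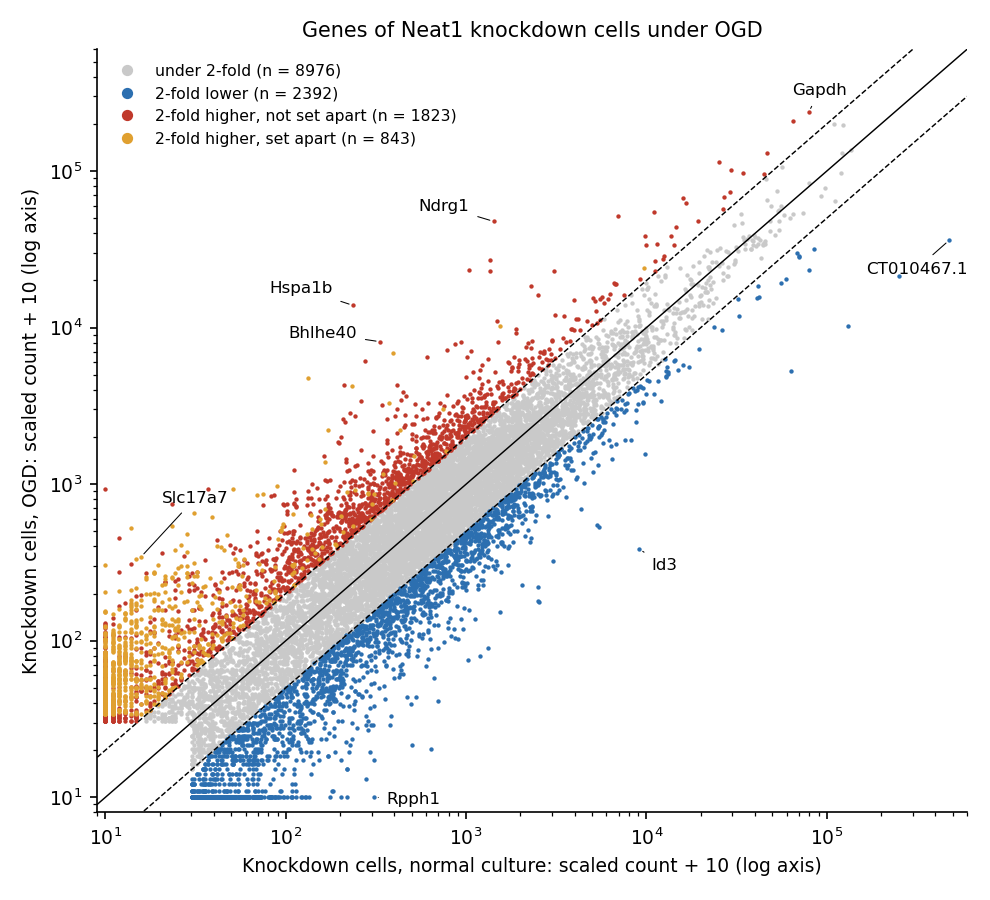
Scaled counts of 14034 genes in Neat1 knockdown cells in normal culture (x axis) and under OGD (y axis), each with 10 added, on log axes. Points are genes, 1 library a side, the solid line marks equal levels and dashed lines 2-fold. Genes set apart (843) lie mostly at the left edge, with few reads in normal culture, while the 1823 other higher genes spread over the range of levels.

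Among genes with a scaled count of 100 or more and an established name, the highest not set apart were led by an inducible chaperone and by hypoxia genes. Hspa1b, which encodes the stress-inducible HSP70, went from 10.99 to 678 CPM, 61.3-fold higher, interval 53.9 to 70.0, a value of 5.88. Its neighbour and near-identical copy Hspa1a stood at 5.16. Ndrg1, a hypoxia-induced gene, went from 68.8 to 2331 CPM in knockdown cells (33.7-fold higher, interval 32.0 to 35.5) and from 46.0 to 2332 CPM in control cells. Its deposited FPKM under OGD was 1237 in knockdown and 982 in control cells. Ndrg2, of the same family, went from 2 to 424 reads, a value of 5.25, and 63 to 187 in control cells. Klhl24, which encodes an adaptor of a ubiquitin ligase, stood at 4.9997. Crebrf, a regulator of the unfolded protein response, stood at 4.66, and Bhlhe40, a transcriptional repressor of the clock and of hypoxia, at 4.61. Bnip3 (4.49), Tmem45a (4.48), Mindy4 (4.47), Dusp4 (4.36), Ero1l (4.31), Slc2a1 (4.09) and Armcx1 (4.01) followed. These genes were also at least 1.8 in control cells. The chromatin remodeller gene Chd5 (4.52) and Gfod1 (3.81) were the other 2 of the 15, and both were lower under OGD in control cells (-1.97 and -1.41). Each held 2 reads in knockdown cells in normal culture, against 544 and 495 in control cells. In the comparison of the 2 OGD libraries, several of the 15 lay under but near the limit of 1. They were Chd5 (0.96), Klhl24 (0.91), Hspa1b (0.91), Crebrf (0.88), Ndrg2 (0.80), Bhlhe40 (0.77) and Armcx1 (0.65). A limit of 1.5-fold would set all of these apart. The others of the 15 lay between -0.42 (Tmem45a) and 0.20 (Dusp4).

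At the other end, the 15 lowest genes included a modifier of Notch, a cyclin and a pair of chemokines. Lfng, a glycosyltransferase that modifies Notch, went from 654 to 10 reads (60.0-fold lower, interval 32.4 to 126) and 500 to 203 in control cells. The helix-loop-helix inhibitor gene Id3 went from 443 to 18.3 CPM (24.3-fold lower, interval 21.9 to 27.1) and in control cells from 319.9 to 22.2 CPM. Both libraries under OGD were low for Id3. Cyclin D1 (Ccnd1), which drives entry into the cell cycle, went from 57.4 to 3.42 CPM (16.9-fold lower, interval 13.2 to 21.9) and in control cells from 48.1 to 9.88 CPM. The neutrophil chemokine genes Cxcl1 and Cxcl5 stood at -3.84 and -3.81, and at -3.36 and -4.19 in control cells. Rasl11a (-4.54), Pcyox1l (-4.41), Ybey (-4.15), Lipt2 (-4.03), Trp53rkb (-3.92) and Them6 (-3.89) were each lower in control cells also, at -3.17, -2.83, -1.45, -1.46, -1.70 and -3.72. Teddm1b held 219 reads in normal culture and 0 under OGD (at least 67.0-fold lower, taking 3 reads for 0). Of the genes by rank that had no such lower value in control cells, Rab26os, an antisense transcript, went from 217 to 5 reads in knockdown and 87 to 56 in control cells, and the nucleotide receptor gene P2ry2 232 to 13 and 71 to 51. Rpph1, Rprl3, Rmrp and Lars2 belong to the group described with the RNAs that lack a poly(A) tail. Among higher genes with no such value in control cells were Lipo3 (3.64 against 0.24), Zfp65 (3.55 against 0.37) and Txndc16 (3.396 against 0.28). All 3 held fewer reads in knockdown cells in normal culture (1 to 33) than in control cells (39 to 283).

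The 843 genes set apart were low in the normal library of knockdown cells: 683 of them had a scaled count under 20 there, against 436 of the 1823 others. They took 0.146% of reads in that library, 0.793% in knockdown cells under OGD, 2.02% in control cells in normal culture and 0.215% in control cells under OGD. The rules that chose these genes used each of these libraries except that of control cells in normal culture, which fixed the direction of the other shares. By value the highest were Fosb (5.24), Hspa1a, Sp140 (0 to 284 reads, at least 103-fold higher), Sparcl1 (4.53), Rtn1 (4.50) and the vesicular glutamate transporter gene Slc17a7 (4.44). Markers of brain cell types moved with them. Of 32 neuronal markers past the floor 31 were higher, 30 of them set apart, with a median of 2.90 in knockdown cells and -5.04 in control cells. Their summed level was 4557 CPM in control cells in normal culture and 106 CPM under OGD, and 46.2 and 351 CPM in knockdown cells. Slc17a7 went from 6 to 319 reads in knockdown and 4528 to 44 in control cells, and the kinase gene Camk2a 62 to 809 and 828 to 64. Astrocyte markers (6 of 8 higher, 5 set apart, median 1.78), oligodendrocyte markers (4 of 5, 3 set apart, 2.95), and microglia and blood markers (3 of 5, all set apart, with 1 lower, 1.63) moved the same way, and 2 of 4 endothelial markers were higher, with 1 lower. A marker under the floor in normal culture entered these counts only through the OGD library, so its call was partly fixed by the floor. With no floor the median was 2.898 for neuronal, 1.545 for astrocyte, 1.16 for oligodendrocyte and 0.96 for microglia and blood markers. Of the fibroblast list 2 of 10 were higher, Vim (1.78) and Thy1 (3.52, set apart, also on the neuronal list), and Col1a1 (-1.42) and Col1a2 (-2.14) were lower. In bulk RNA, more cells of a type and more RNA per cell cannot be told apart. The part of these transcripts in the results below was not tested, and members set apart are counted separately in each list.

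RNAs without a poly(A) tail moved in the opposite direction. Of 13 listed genes 12 were lower, with a median of -3.56, and their summed level went from 45590 to 3657 CPM. In control cells 11 of 12 were higher, with a median of 1.71, from 18640 to 58000 CPM. Rmrp, the RNA of RNase MRP, went from 1061 to 63 reads in knockdown and 348 to 1031 in control cells. Rpph1, the RNA of RNase P, went from 312 to 0 and 113 to 246, and its related copy Rprl3 718 to 30 and 283 to 854. The 7SK RNA gene Rn7sk, which restrains transcription elongation, stood at -2.40 and 2.05, and the signal recognition particle RNA gene Rn7s1 at -3.27 and 1.64. Lars2, a protein-coding gene of the mitochondrial leucyl-tRNA synthetase, was also placed on this list, so that the list's counts and median include it. Lars2 went from 3089 to 258 CPM in knockdown and 1151 to 3447 CPM in control cells. Its value in knockdown cells (-3.59) lay near those of CT010467.1 and AY036118, given below. Which sequence the reads counted for Lars2 came from was not tested. Of the 45590 CPM in knockdown cells in normal culture, Rmrp, Rprl3 and Rpph1 held 49.4, 33.4 and 14.5 CPM. Most of the sum thus lay in other members of the list, which include CT010467.1 (-3.72) and AY036118 (-3.67). By annotated type, all 18 small nuclear RNA genes past the floor and all 7 miscellaneous RNA genes were lower in knockdown cells, as were 97 of 259 long intergenic and 105 of 265 antisense RNA genes, against 17.0% of all genes. Whether poly(A) selection was used is not stated in the labels.

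**Figure D2:**
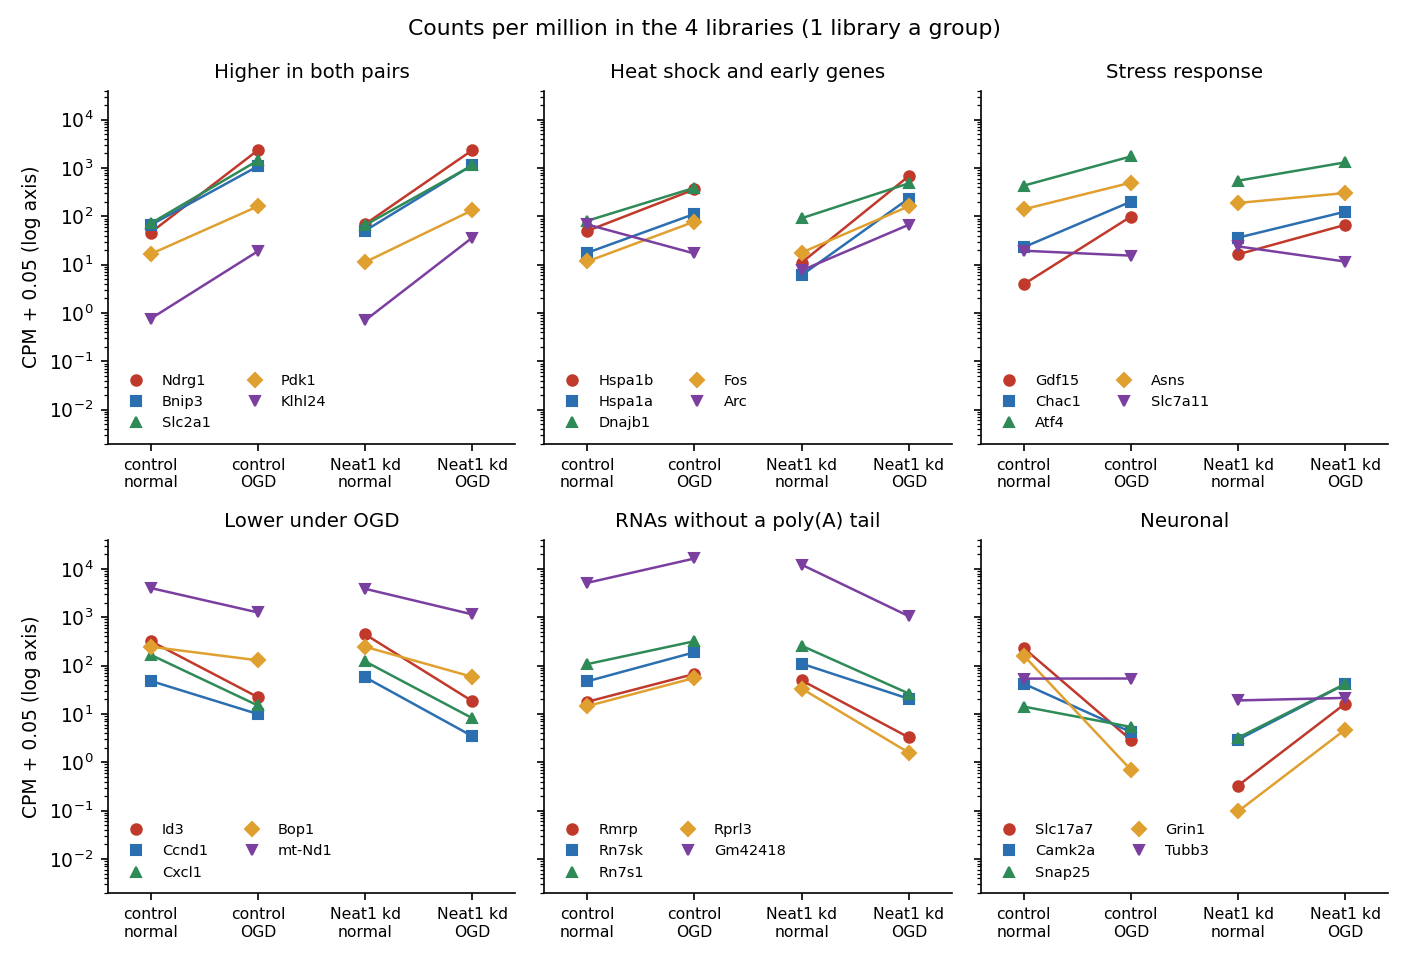
Level (CPM + 0.05, log axis) of 5 genes in each of 6 groups, in the 4 libraries. Lines join normal culture and OGD of the same virus. Hypoxia genes such as Ndrg1 slope upward in both pairs, while RNAs without a poly(A) tail and the neuronal genes other than Tubb3, which is nearly level, slope in opposite directions in the 2 pairs.

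Targets of HIF were mostly higher. Of 37 listed targets past the floor 27 were higher and 2 lower, and none of the 27 was set apart. The median was 2.25, against -0.01 over all genes. In control cells 28 of 38 were higher and 2 lower, median 1.86. Their summed level went from 3016 to 13980 CPM in knockdown cells. The mitophagy receptor gene Bnip3 went from 50.2 to 1147 CPM (22.7-fold higher, interval 21.3 to 24.1), and in control cells from 66.0 to 1085 CPM. Its relative Bnip3l stood at 3.11. Ero1l, the oxidase that feeds disulphide formation in the endoplasmic reticulum, went from 65.7 to 1317 CPM, and the histone demethylase gene Kdm3a, an enzyme that itself needs oxygen, from 9.64 to 128 CPM (13.2-fold higher, interval 11.4 to 15.3; 2.32 in control cells). Pdk1, a kinase that inhibits pyruvate dehydrogenase, stood at 3.51, Ankrd37 at 3.35 and Selenbp1, with 0 to 106 reads, at 3.59. The angiogenic factor gene Vegfa stood at 2.25, and Ddit4, an inhibitor of mTORC1, at 2.75. The collagen hydroxylase genes P4ha1 (2.88), Plod2 (2.43) and P4ha2 (1.66) and the crosslinking oxidase gene Lox (1.61) were higher together.

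Not every target followed. Angptl4, which inhibits lipoprotein lipase, went from 385 to 18 reads (19.6-fold lower, interval 12.2 to 33.5; -1.37 in control cells). Pfkfb4, a regulator of glycolysis, stood at -1.59 and 0.19. Slc2a3, another glucose transporter gene (-0.96), Pfkfb3 (-0.67), Hilpda (-0.31) and Stc2 (0.05) did not reach 2-fold, and Stc2 stood at 1.45 in control cells. Car9, a carbonic anhydrase gene used as a hypoxia marker, was called on 9 to 39 reads.

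Of the HIF subunits and oxygen sensors 4 of 14 were higher and none lower (median 0.61). The higher ones were the prolyl hydroxylase genes Egln3 (2.40) and Egln1 (1.80), which mark HIF for degradation, Arnt (1.81), and Ep300 (1.02), a coactivator. Hif1a itself stood at 0.14, from 71.0 to 79.0 CPM, Vhl at 0.69, and Egln2 at -0.78. Siah2, a ubiquitin ligase gene that acts on the prolyl hydroxylases, lay at 0.9965, just under the rule. Of 18 genes of the jumonji family of oxygen-dependent demethylases 8 were higher, 1 set apart, 10 did not reach 2-fold and none was lower. The higher ones included Kdm5c (2.35), Kdm4b (2.35), Kdm6b (1.32) and Jmjd6 (1.26), with Kdm3a and Kdm4b also on the HIF target list. In control cells 5 of 18 were higher and 2 lower.

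Glycolysis was higher from hexokinase to lactate dehydrogenase. Of 17 enzyme genes 16 were higher, 2 of them set apart, and none lower, and the median was 1.98 (control 1.66, 14 of 17). Their summed level went from 14440 to 43350 CPM. Gapdh held the most reads of any gene in the OGD library of knockdown cells (82915 to 227939 reads, 3.00-fold higher, interval 2.97 to 3.02), at 17277 FPKM. Eno2, the enolase typical of neurons, was highest of the list at 3.70 (control 1.66). Pfkl, a subunit of phosphofructokinase, went from 149 to 1131 CPM (2.91), Hk1 and Hk2, which trap glucose in the cell, stood at 2.27 and 2.06, and Ldha, which makes lactate, at 1.495. The members set apart were Ldhb (2.68) and Aldoc (2.498), of which Aldoc is also an astrocyte marker. Pfkm, the muscle subunit, lay just under 2-fold (0.99). The other genes with the most reads under OGD were Actg1 (1.68), Ftl1 (0.87), Eef1a1 (0.68), mt-Co1 (0.01) and Pkm (1.48).

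Of the carriers of glucose and lactate 5 of 13 were higher, 1 set apart, and none lower. Slc2a1, the main glucose transporter gene, went from 65.6 to 1130 CPM (17.1-fold higher, interval 16.2 to 18.1), and from 71.3 to 1427 CPM in control cells. Slc16a3, the lactate exporter, stood at 1.59 and its chaperone gene Bsg at 1.32, and Slc16a1, the other main lactate carrier, at -0.09. Of 13 glycogen genes 7 were higher and 2 lower. The higher ones included the branching enzyme Gbe1 (3.21, control 3.48), Pgm1 (3.02), glycogen synthase Gys1 (2.73) and glycogenin Gyg (1.69). Of the phosphorylase genes, Pygb stood at -0.34 and Pygm, with 37 to 1 reads, was lower at -2.04. The other lower gene was Ppp1r3d (70 to 1 reads). Of the 14 genes of the pyruvate dehydrogenase switch only Pdk1 was called, and of 20 tricarboxylic acid cycle genes 1 was higher, Pcx (1.03), and 2 lower, Sdhb (-1.05) and Suclg1 (-1.14). Txnip, which blocks glucose uptake and is induced by glucose, was lower in both pairs, from 60.8 to 21.04 CPM in knockdown and 55.5 to 2.80 CPM in control cells, the 1 lower gene of 6 glucose-sensing arrestins and their regulators, where Mlx (1.11) was higher.

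**Figure D3:**
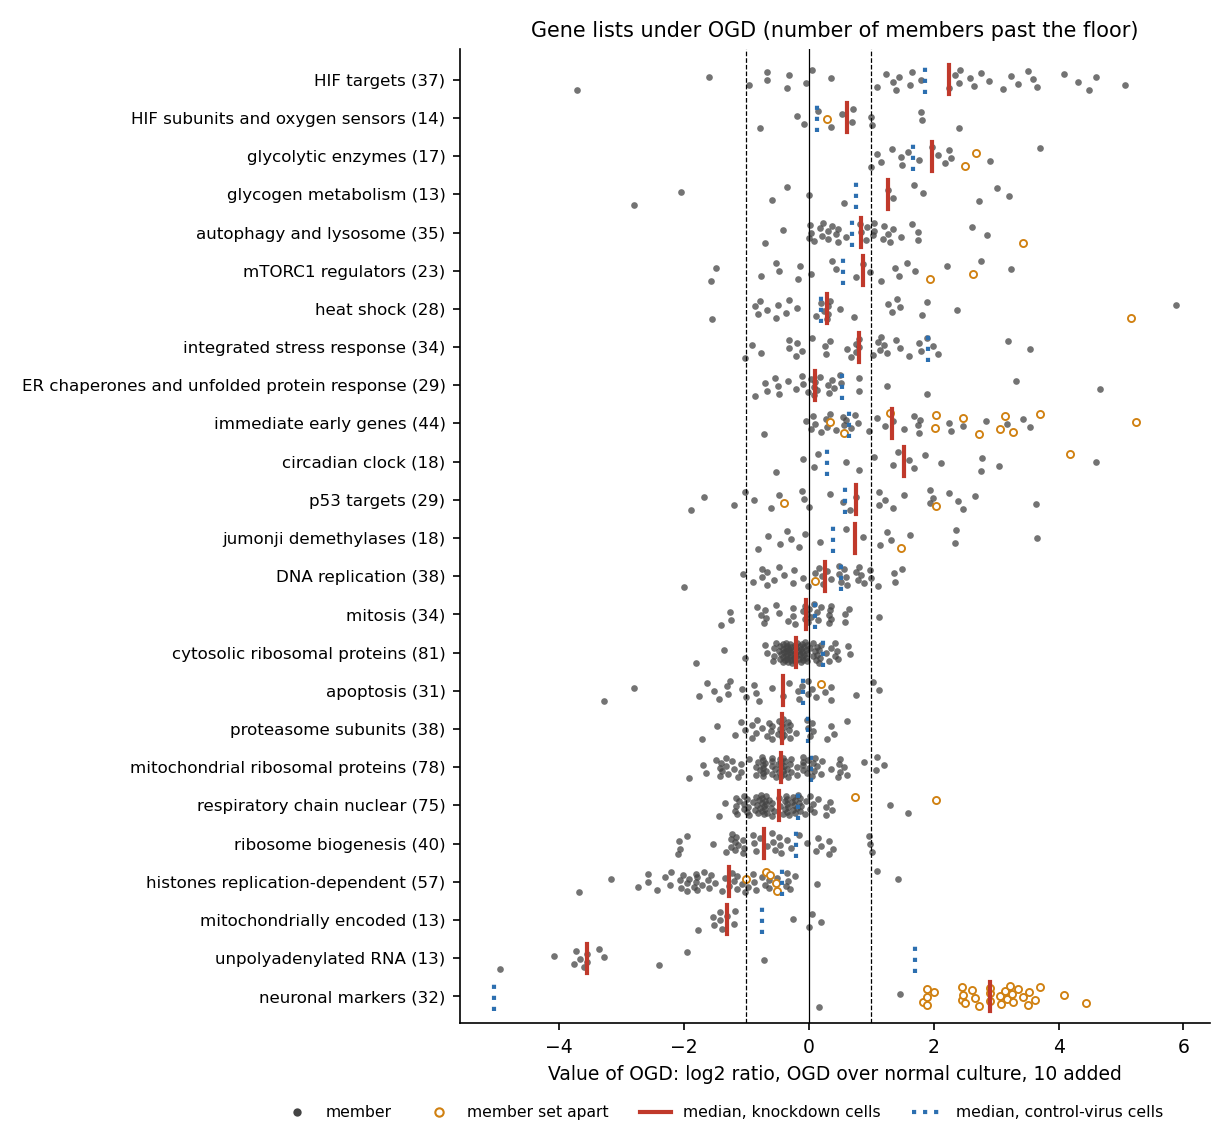
Value of OGD (log2 ratio of OGD to normal culture, 10 added) for members of 25 gene lists in knockdown cells. Filled points are members, open points members set apart, red bars the list's median in knockdown cells and dotted blue bars that in control-virus cells; dashed lines mark 2-fold. HIF targets and glycolytic enzymes lie to the right in both pairs, while the medians of RNAs without a poly(A) tail and of neuronal markers lie on opposite sides.

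Of 35 autophagy genes 15 were higher, 1 set apart, 20 did not reach 2-fold and none was lower, against 19.0% higher and 17.0% lower of all genes. The median was below 2-fold at 0.84 (control 0.69, 12 of 34 higher and 2 lower). The higher genes included the cargo receptor genes Sqstm1 (667 to 1880 CPM, 1.49), Calcoco1 (2.85), Optn (1.75) and Nbr1 (1.26), Atg14 (2.62), which starts the autophagosome, Map1lc3b (1.1996), which coats it, and the lysosomal membrane genes Lamp1 (1.04) and Lamp2 (1.34). Pink1, a kinase that marks damaged mitochondria, stood at 1.19 in knockdown and -1.62 in control cells. Among regulators of mTORC1, the kinase complex that couples nutrients to growth, 10 of 23 were higher, 2 set apart, and 2 lower. Fnip1 (3.24) and Tsc1 (2.22), with Ddit4, lay on the higher side, and Castor1 (-1.49) and Castor2 (-1.57), arginine sensors, on the lower. Mtor stood at -0.76.

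The heat shock response was narrow. Of 28 listed genes 9 were higher, 1 set apart, and 1 lower, against 19.0% and 17.0% of all genes. The median was 0.30 (control 0.20, 6 higher and none lower). Reads of Hspa1a and Hspa1b cannot be divided with certainty, so they were also summed: 365 to 17843 reads in knockdown cells, 53.3-fold (48.0 to 59.2), and 1320 to 7258 in control cells, 7.37-fold (6.95 to 7.82). The co-chaperone gene Dnajb1 stood at 2.38 (control 2.34), the small heat shock genes Hspb1 and Cryab at 1.82 and 1.46, and the constitutive Hspa8 at 1.34. Hsp90aa1 (-0.50), Hspd1 (-0.52) and Hspe1 (-0.86), chaperones of the cytosol and mitochondria, lay below 0, and Fkbp4, a partner of HSP90 in steroid receptor complexes, was lower (425 to 146 CPM, 2.94-fold lower, interval 2.82 to 3.06). Its promoter, like those of Hspa1b and Hspb1 shown above, holds the heat shock core.

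Genes of the integrated stress response were higher in fewer cases in knockdown than in control cells. In knockdown cells 16 of 34 were higher and 1 lower (median 0.80), and in control cells 25 of 33 were higher and none lower (median 1.90). The difference between the pairs was not tested. Atf3 (3.55 against 3.25) and Ppp1r15a, which restarts translation (3.19 against 2.99), stood at similar values in the 2 pairs. Chac1, which degrades glutathione, went from 36.2 to 125 CPM in knockdown and from 22.9 to 201 CPM in control cells. Gdf15, a stress-induced cytokine gene, went from 16.3 to 66.6 CPM and from 3.88 to 98.5 CPM. For both genes the knockdown library was higher than the control library in normal culture and lower under OGD. Asns, the asparagine synthetase gene, stood at 0.67 (control 1.90), Sesn2 at 0.75 (2.33), Mthfd2 at 1.03 (2.25) and Ddit3, the transcription factor CHOP, at 2.07 (2.81). Serine synthesis genes lay below 0 in knockdown cells (Phgdh -0.90, Psph -0.76), and Slc7a11, the cystine carrier that shares the ATF4 element, was lower (-1.03). Scaling to total reads moved the median of all genes in control cells from -0.03 to -0.34 and left that in knockdown cells at -0.01.

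Lists of tRNA synthetases, amino acid carriers and endoplasmic reticulum chaperones also held fewer higher genes in knockdown than in control cells, a difference that was not tested. Of 20 cytosolic tRNA synthetase genes 2 were higher in knockdown cells, Sars (1.31) and Tars (1.13), and 6 in control cells. Of 16 amino acid carriers 2 were higher and 3 lower, against 7 higher and 1 lower of 15 in control cells. Slc7a5 stood at -0.31 against 1.22, Slc7a1 at 0.04 against 2.05, and the leucine carrier gene Slc43a2 was lowest (-3.17). Of 29 endoplasmic reticulum chaperones and regulators 4 were higher and none lower, led by Crebrf, Dnajb9 (3.31), Herpud1 (1.89) and P4hb (1.25), against 10 in control cells. Hspa5, the main chaperone of that compartment, stood at 0.81 (1.68), Xbp1 at 0.10 (0.97) and Hyou1 at -0.69 (0.52). One-carbon metabolism had 5 of 18 higher, 1 set apart, and 3 lower, with Mthfd1l (1.85) above and Mat2a (-1.15) below.

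Immediate early genes, which respond to signals within minutes without new protein, were higher in 25 of 44 cases and lower in none. The median was 1.33, and 0.88 without members set apart. Of the 25, 10 were set apart, among them Fosb, Egr3 (0 to 83 reads), Arc, Fos, Egr1, Egr2 and Nr4a1. Arc, a gene of neuronal activity, went from 7.54 to 66.8 CPM in knockdown cells and from 67.9 to 17.0 CPM in control cells. Fos went from 17.7 to 161 CPM and from 11.6 to 77.4 CPM. Of those not set apart, Jun stood at 3.17, Maff at 3.43 and Csrnp1 at 2.84, and in control cells at 1.49, 3.77 and 2.12. The neuronal markers, as given above, were higher over the same pair of libraries, and their part in the values of this list was not tested. Phosphatases that end MAP kinase signals had 7 of 16 higher, 1 set apart, and 2 lower. Dusp4 (9.68 to 209.8 CPM) and Dusp1 (3.24) were highest, while Dusp6 stood at -0.40 and Dusp14 at -1.63. Of 12 Kruppel-like factors 6 were higher and none lower, with Klf5 at 2.48, Klf4 at 1.75 and Klf9 at 1.76 (control -2.05).

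Clock genes were higher in 12 of 18 cases, 1 set apart, and lower in none, with a median of 1.52. In control cells 5 of 20 were higher and 5 lower, median 0.29. Higher genes of the repressor arm included Bhlhe40, Nr1d1 (4.19, set apart), Ciart (2.77), Bhlhe41 (2.76), Per1 (1.69) and Per2 (1.61). Dbp, an output gene, went from 8.70 to 39.7 CPM in knockdown cells and from 82.9 to 28.2 CPM in control cells, and Hlf went from 3 to 92 and 395 to 37 reads. Arntl, of the activator arm, was higher too (1.43), so that higher genes were not confined to the repressor arm. Cry1 (0.09) and Clock (0.14) stayed near 0. Lower counts of such output genes in the normal library of knockdown cells than of control cells stand beside these values: the list summed to 283 and 520.3 CPM there, and to 1159 and 843 CPM under OGD.

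Of 29 targets of p53 14 were higher, 1 set apart, and 4 lower, against 19.0% and 17.0% of all genes. The cell cycle inhibitor gene Cdkn1a went from 10.52 to 138 CPM (13.0-fold higher, interval 11.4 to 14.98; control 3.70), and Mdm2, which limits p53, stood at 2.39, Gadd45a at 2.24 and Ccng2 at 2.66. Lower members were Zmat3 (-1.89), Aen (-1.67), Phlda3 (-1.19) and Ei24 (-1.02), and Trp53 itself stood at 0.01. Genes of G1 had 5 of 25 higher, 1 set apart, and 5 lower, near the 19.0% and 17.0% of all genes. The lower ones were Ccnd1, Cdk6 (-2.77), Ccne1 (-2.13), Ccnd2 (-1.41) and E2f2 (-1.08). Cdkn1b (1.17), an inhibitor, and E2f1 (1.41) lay on the higher side. Replication genes had 5 of 38 higher and 2 lower (median 0.26), and mitotic genes 1 of 34 higher and 3 lower (-0.05), against 19.0% and 17.0% of all genes. Cdt1 (1.49), which licenses origins, and Tk1 (-1.997), thymidine kinase, marked the ends of the replication list.

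Of 31 apoptosis genes 11 were lower and 2 higher, against 17.0% and 19.0% of all genes, and 18 did not reach 2-fold (median -0.41). In control cells 1 of 29 was lower and 1 higher. Casp9, the initiator caspase of the mitochondrial route, went from 102 to 1 reads in knockdown cells (93.6-fold lower, interval 16.4 to 3733) and 242 to 134 in control cells. Lower members lay on both sides of cell death: Bad (-1.63), Bok (-1.31) and Bid (-1.30) promote it, and Bcl2l1 (-1.06), Cflar (-1.44) and Birc5 (-1.27) restrain it. Cycs, the cytochrome c gene, stood at -1.51. The higher members were Bbc3 (1.12), which promotes death, and Xiap (1.03), which inhibits caspases. Inflammatory genes had 4 of 20 higher, 2 set apart, and 6 lower: Ptgs2, the inducible cyclooxygenase, went from 122 to 791 CPM, while Csf1 (-2.64), Ccl2 (-1.83) and Cx3cl1 (-1.76) were lower with Cxcl1, Cxcl5 and Lif (-1.73). Of 20 interferon genes 1 was higher and 3 lower, with Ifit2 lowest (-3.36). Angiogenic and secreted factors had 8 of 23 higher, 1 set apart, and 4 lower, with Pgf (2.86) and Angpt2 (0 to 89 reads, against 84 to 68 in control cells) highest beside Vegfa, and Tgfb3 (-2.93) low.

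Of 40 ribosome biogenesis genes 16 were lower, 1 was higher and 23 did not reach 2-fold, against 17.0% lower and 19.0% higher of all genes. The median stood at -0.72 (control 2 lower, 3 higher, -0.20). Bop1, needed for the large subunit, went from 245 to 58.4 CPM (4.22-fold lower, interval 3.96 to 4.50) and in control cells from 245 to 128 CPM. Nhp2 (-2.09) and Dkc1 (-1.95), which modify uridine in ribosomal RNA, Nop16 (-2.08), and the RNA polymerase I subunit genes Polr1a (-1.22) and Polr1b (-1.16) with their factor Ubtf (-1.17) were lower, while Npm1 stood at 0.11. Of 81 genes named for cytosolic ribosomal proteins 3 were lower (Rpl7l1, Rps27l and Rpl3l, which are variants or paralogs) and none higher, with a median of -0.21. Of 78 mitochondrial ribosomal protein genes 16 were lower and 3 higher, median -0.44 (control 0.03, 3 and 3). Host genes of small nucleolar RNAs had 2 of 14 higher, 1 set apart, and 2 lower, and Gas5 stood at 0.31.

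Of the 13 protein genes of the mitochondrial genome 9 were lower and none higher, and the median stood at -1.31 (control 6 lower, -0.74). They did not move evenly. mt-Nd1 went from 3870 to 1145 CPM, mt-Nd2 stood at -1.54 and mt-Cytb at -1.42, but mt-Co1 (0.01), mt-Atp6 (0.06), mt-Atp8 (0.20) and mt-Co3 (-0.26) were near 0. mt-Atp8 and mt-Atp6 overlap, so their reads may not be separable. Nuclear genes of the respiratory chain had 10 of 75 lower, a smaller share than the 17.0% of all genes, and 3 higher, 1 set apart, median -0.47. The lower ones were small subunits such as Ndufb2 (-1.44), Ndufa4 (-1.19) and Atp5j (-1.35), and Ndufv3 (1.59) was higher. Of 38 proteasome genes 5 were lower, a smaller share than the 17.0% of all genes, and none higher (median -0.43), and Psmb5, a catalytic subunit, was lowest (302 to 92.7 CPM).

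Replication-dependent histone genes, whose messages end in a stem-loop in place of a poly(A) tail, were lower in 36 of 57 cases and higher in 2, with a median of -1.28 (control 11 of 49 lower, -0.42). With 50 added the median was -0.82, under 2-fold. They summed to 399 CPM in knockdown cells in normal culture, 171 CPM under OGD, and 229 and 155 CPM in control cells. The linker histone gene Hist1h1a went from 123 to 0 reads (at least 37.6-fold lower) and Hist1h1e 267 to 33, while Hist1h1c stood at -0.30. Reads of near-identical histone genes may be split uncertainly. The RNAs without a poly(A) tail went over the same pair of libraries from 45590 to 3657 CPM, and their part in this result was not tested.

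The remaining lists are given by their counts, beside the 19.0% higher and 17.0% lower of all genes. Of 30 paraspeckle protein genes 6 were lower, near the 17.0% of all genes, and none higher in knockdown cells (median -0.04). The lower ones included Rbm12 (-2.16), Fam98a (-2.09), Sfpq (-1.69), Rbm14 (-1.61) and Rbm4 (-1.44). Nono, the partner of Sfpq, stood at 0.76. Splicing regulators had 7 of 34 higher and 3 lower, with the kinase genes Clk1, Clk3 and Clk4 (1.198, 1.52 and 1.30) above, and Srsf1 and Srsf3 (-1.21 and -1.21) below. Cholesterol synthesis had 7 of 24 higher and 3 lower, with Insig1 (1.74) and Cyp51 (1.66) on the higher side. NRF2 antioxidant genes had 3 of 25 higher and 5 lower. Hmox1, the inducible haem oxygenase, went from 806 to 3059 CPM in knockdown and from 291 to 1531 CPM in control cells, while Gsr (-1.37) and Txn1 (-1.21), which reduce disulphides, were lower. Collagen-modifying enzymes had 4 of 15 higher and 1 lower. Collagens had 1 of 24 higher and 4 lower, with the lower share near the 17.0% of all genes. The 4 modifying enzymes named with the HIF targets were higher, and Col1a1 and Col1a2 were lower. The collagen count takes in Col4a3bp (-1.21), which is named for a collagen and is not one. Zinc finger genes named Zfp had 52 of 293 higher, 18 set apart, and 69 lower.

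In the pair of control-virus cells 1477 of 13930 genes were higher (10.6%) and 2756 lower (19.8%), so that higher genes made up 34.9% of those called, and 18.7% with scaling to total reads, where 858 were higher and 3737 lower. Over the 13024 genes past both floors, 850 were higher in both pairs. The 850 are 31.88% of the 2666 genes higher in knockdown cells and 57.55% of the 1477 higher in control cells. Without genes set apart 814 were higher in both, 44.65% of the 1823 left in knockdown cells. Setting apart removes genes that are low in control cells under OGD, so it raises this share by construction. Lower in both pairs were 760, 31.77% of the lower genes of knockdown cells and 27.58% of those of control cells. Higher in knockdown and lower in control cells were 581 genes, of which 464 were set apart, and lower in knockdown and higher in control cells were 45. The 2 pairs share no library. Across the 13024 genes the values correlated at Pearson r = 0.163 and Spearman rho = 0.444, and across the 11995 not set apart at 0.566 and 0.629. Setting genes apart compares the 2 OGD libraries that enter these values, so that it removes genes that differ between the pairs by construction, and the second pair of correlations is no sign of a shared response. Genes are not independent replicates, and each pair compares 1 library with 1 other.

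**Figure D4:**
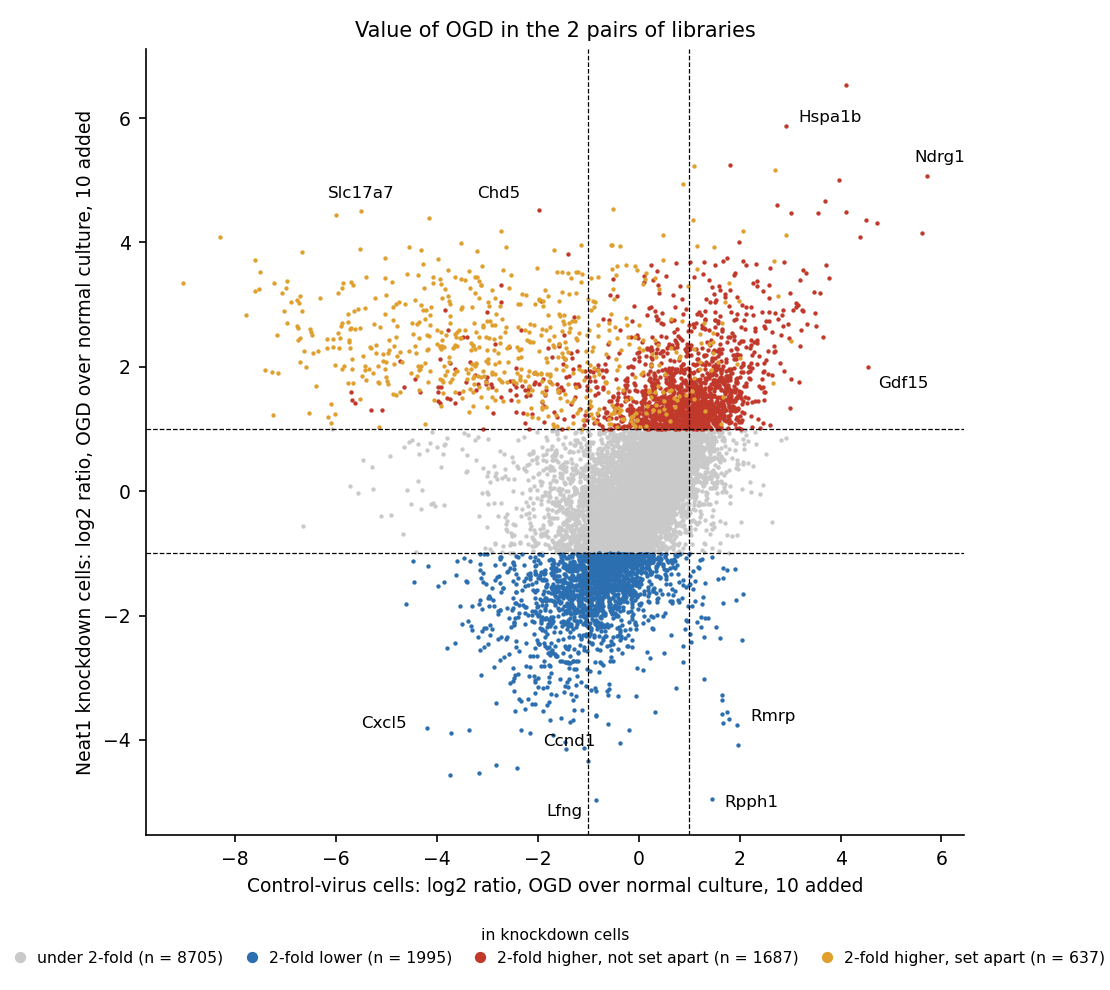
Value of OGD in control-virus cells (x axis) and in Neat1 knockdown cells (y axis), both log2 ratios with 10 added, for 13024 genes past the floor in both pairs. Points are coloured by their call in knockdown cells and dashed lines mark 2-fold. Genes set apart spread to the left, with low values in control cells, while the other higher genes lie mostly to the right of 0.

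Lower genes had fewer exons. Among 12225 protein-coding genes past the floor, 40.67% of the 300 with a single exon were lower, 31.26% of the 451 with 2 exons, 16.92% of the 3298 with 5 to 8, and 9.74% of the 2948 with 16 or more, against 15.11% of all. Without histone genes 36.8% of 250 single-exon genes were lower. The share of higher genes not set apart went the other way, from 7.33% at 1 exon to 14.55% at 16 or more. In control cells 46.08% of single-exon genes and 16.68% of those with 16 or more were lower. The median larger scaled count was 181.5 at 1 exon, 251 at 2, 464 at 3 to 4 and 681 at 5 to 8. It was 647 at 9 to 15 and 590 at 16 or more. Level thus rose up to 5 to 8 exons, over groups in which the share of lower genes fell. Beyond these groups level was somewhat lower and the share of lower genes fell further. The part of level and length in this pattern was not tested. The median length of exons together was 3740 bases in lower genes, 4839 in higher genes not set apart and 4545 in all, and the GC content of the longest transcript differed little (medians of 50.5%, 49.7% and 49.9%).

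**Figure D5:**
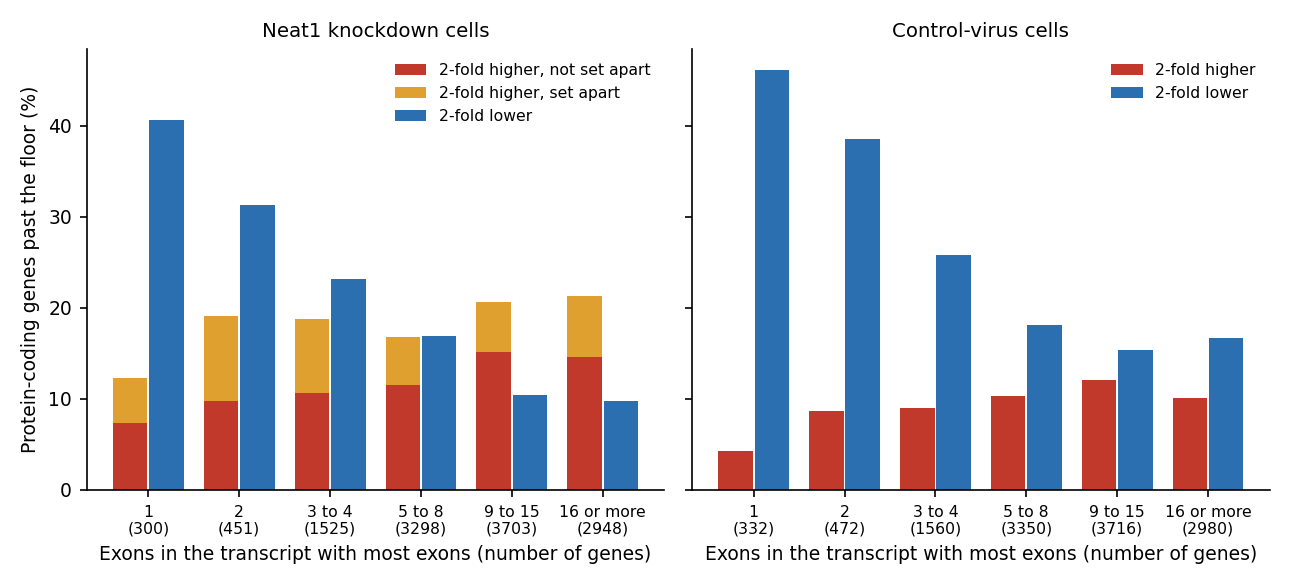
Share of protein-coding genes past the floor that were 2-fold higher or lower under OGD, by the number of exons in the transcript with most exons, in Neat1 knockdown cells (left) and control-virus cells (right). Bars are percentages of the genes given in brackets. The share of lower genes declines from 40.67% to 9.74% on the left and from 46.08% to 16.68% on the right.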

How the data were processed

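RNA of HT22 cells was sequenced as 4 libraries, 1 for each combination of virus and culture. Per the labels' protocols, total RNA was broken into fragments of about 200 bases, 1 strand of the cDNA was marked with deoxy-UTP, and the cDNA was enriched by 12 cycles of PCR. TopHat2 and the mm10 genome are named in the submitters' processing notes. The TopHat2 version, the read counter, the annotation and the strand counted were not given in the sources used here.

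The deposited tables compare libraries by pairs, and the signal in their columns is read counts per gene that the authors divided by a size factor. Each value was a whole number of reads times what 1 read is worth (100% of values within 1e-06), so that reads were recovered: 18596774 and 17232866 in control cells in normal culture and under OGD, and 20764430 and 19066951 in knockdown cells. The deposited FPKM columns, headed by sample number and taken as FPKM from their values, served as an alternative. All columns of per-sample values have a sample.

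The value of a gene was log2((OGD + 10)/(normal + 10)) of scaled counts, for genes at 20 or more in the larger. With 1 library a group no test was made, the precision given is counting error only (exact conditional binomial intervals, scipy 1.17.1), and a gene at 0 reads was given a bound that takes 3 reads for 0. CPM used TMM factors from edgeR 4.0.16 (R 4.3.3), with Python 3.11.15 for the rest. Gene positions and exons came from GENCODE M21, which matched 19950 of 20089 genes, and promoters from RefSeq on GRCm38.p6. The fold calculation was tested on simulated data.

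Genes named in the text were, among those at 100 or more with an established name, the 15 highest not set apart, the 6 highest set apart, the 15 lowest, the 6 highest whose control value was under 0.5 and the 6 lowest whose control value was over -0.5. Members of the gene lists beside each list's count, genes next to each threshold, Neat1 and Malat1, and the 6 genes with most reads were also named. Some genes that these rules take are not reported here. The members and the 51 lists were chosen with earlier results of these data known. The exon groups, the sum of Hspa1a and Hspa1b and the genes in the other observations were chosen after their values were seen. Alternatives changed the count added (1 or 50), the floor (none or 100), the scaling (TMM, total assigned reads, FPKM with 0.5 added) and the rule for setting genes apart. No library was left out.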

Additional observations from a re-analysis of the deposited data

Results flagged for a closer look

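The following values of OGD lay on opposite sides of 0 in the 2 pairs of libraries, past 2-fold in each. With 1 library a group the difference between the pairs was not tested for any of them.

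Among gene lists, the median of RNAs without a poly(A) tail was -3.56 in knockdown and 1.71 in control cells. Lists of brain cell types lay the other way round. The median of neuronal markers was 2.90 in knockdown and -5.04 in control cells, that of oligodendrocyte markers 2.95 and -3.30, that of astrocyte markers 1.78 and -1.61, and that of microglia and blood markers 1.63 and -2.74. With 50 added the median in knockdown cells was 0.80 for astrocyte markers, under 2-fold. With no floor it was 1.16 for oligodendrocyte markers. The microglia and blood median rests on 5 genes and was 0.54 with 50 added, 0.96 with no floor and -1.08 at a floor of 100, so that its direction turned.

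Among the genes named by rank, 4 were higher in knockdown and lower in control cells. Chd5, a chromatin remodeller gene, stood at 4.52 and -1.97, and Gfod1 at 3.81 and -1.41. Rtn1, which encodes a reticulon abundant in neurons, stood at 4.50 and -5.50, and the glutamate transporter gene Slc17a7 at 4.44 and -6.01. The other 4 were lower in knockdown and higher in control cells. They were the RNA genes Rpph1 (-4.95 and 1.45), Rprl3 (-4.08 and 1.97) and Rmrp (-3.76 and 1.95), and the protein-coding gene Lars2 (-3.59 and 1.65).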

How the results depend on the processing

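Each group held 1 library, so no library could be left out and no spread between replicates stands behind any value. No paired analysis was possible because each group holds 1 library and no test was run. With 50 added in place of 10, 1619 genes were higher in knockdown cells, 1423 were lower and 217 were higher and set apart, and 1637 were lower in control cells. With a floor of 100, where fewer genes were counted, 1648 were higher in knockdown cells and 215 of these set apart, and 1647 were lower in control cells. Genes higher in control cells numbered 858 with total assigned reads and 845 with FPKM; the cause was not tested. The median of microglia and blood markers turned from 1.63 to -1.08 at a floor of 100, where fewer of them were counted. Of 600 genes followed, those named by rank or called within a list, none reversed under these alternatives, while 123 went below 2-fold with 50 added, 70 with FPKM and 2 with TMM factors. Setting genes apart at 1.5-fold left 1457 of the higher genes in place of 1823, and with total assigned reads 1657. Reads at 0 to 3 limit values such as those of Selenbp1, Chd5 and Gfod1.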

Other observations

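Genes of metal binding that belong to none of the lists were among the most abundant under OGD, and are named here after their values were seen. Metallothionein 1 (Mt1), which binds zinc and copper, went from 7232 to 49554 reads in knockdown cells (value 2.90) and from 7663 to 54712 in control cells (3.26). Its deposited FPKM in knockdown cells went from 1026 to 7908. Metallothionein 2 (Mt2) went from 11423 to 52662 reads in knockdown cells (2.33) and from 9304 to 63980 in control cells (3.203). Both genes were thus higher in both pairs.

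The highest value of all genes in knockdown cells belonged to Gm17035, which the naming rule leaves out because of its predicted-gene name. This antisense gene went from 0 to 877 reads in knockdown cells (6.53) and from 24 to 448 in control cells (4.10). In GENCODE on GRCm38 it lies on chromosome 15 at 66929607 to 66931107 on the plus strand, within Ndrg1 (66929318 to 66969640, minus strand), itself among the highest genes. The labels do not state how strand was treated in counting, so that reads of the 2 genes cannot be told apart.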
